A study of Mus musculus with 14 samples.

Results

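Krt5, Krt14, Krt4 and Sfn are 4 genes of stratified epithelia, and their RNA was followed in fibroblasts on the way to reprogramming. They were taken by symbol from the 14 expression tables of the series and make up 4 of the 26962 genes with a value in any library. The cells were mouse embryonic fibroblasts of the OG2/129SV strain, and all of them received Oct4, Sox2, Klf4 and c-Myc (OSKM). One arm received Cdk9-DN as well, a dominant negative form of the kinase Cdk9, and the other arm received a control vector. Both arms grew in embryonic stem cell medium with serum and LIF, and RNA was taken from the transduced population in bulk at days 3, 4, 5 and 10 after infection. Day 3 had 1 library per vector, and days 4, 5 and 10 had 2 libraries per vector each. The labels call the cells reprogramming intermediates and do not say whether the libraries of a group came from separate cultures. P-values therefore cover the spread among these libraries, which may be technical.

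Stratified epithelia such as epidermis, oesophagus and vagina renew from a basal layer. Keratins work as pairs of a type I and a type II chain: Krt14 and Krt5 are the pair of the basal cell, and Krt4 is a type II keratin of the layers above it in mucosal epithelia such as the oesophagus. Sfn encodes 14-3-3 sigma, the epithelial member of the 14-3-3 family of phosphoprotein-binding adaptors, which is induced by p53 and takes part in keratinocyte cell cycle exit and differentiation. Fibroblasts pass through a mesenchymal-to-epithelial transition early in OSKM reprogramming. Cdk9 is the catalytic subunit of P-TEFb and helps paused RNA polymerase II to enter elongation, and the study's title names pause release as a rate-limiting step of reprogramming.

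In the mm9 coordinates of the tables, Krt5 (ENSMUSG00000061527) lies at chr15:101537501-101543322 and Krt4 (ENSMUSG00000059668) at chr15:101748967-101755166, both in the type II keratin cluster. Krt14 (ENSMUSG00000045545) lies at chr11:100064476-100068862 in the type I cluster, and Sfn (ENSMUSG00000047281) at chr4:133156471-133158083. All 4 are protein-coding. The longest GENCODE M21 transcripts of Krt5 and Krt4 have 9 exons each, that of Krt14 has 8, and that of Sfn is a single exon of 1613 bases.

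The promoters of Krt5 and Sfn are shown because both genes were called higher at day 10 than at day 4 with either vector, while Sfn alone of this pair was called lower with Cdk9-DN at day 10. Each window runs from 250 bases before to 50 bases after the start site, on the minus strand of GRCm38.p6 (RefSeq), and is written 5′ to 3′. Capitals mark matches on either strand to CACCC, a core bound by Klf factors such as the delivered Klf4, or to AACNGGTT, the core bound by Grainyhead-like factors of epithelia.
Krt5, chr15:101712856-101713155: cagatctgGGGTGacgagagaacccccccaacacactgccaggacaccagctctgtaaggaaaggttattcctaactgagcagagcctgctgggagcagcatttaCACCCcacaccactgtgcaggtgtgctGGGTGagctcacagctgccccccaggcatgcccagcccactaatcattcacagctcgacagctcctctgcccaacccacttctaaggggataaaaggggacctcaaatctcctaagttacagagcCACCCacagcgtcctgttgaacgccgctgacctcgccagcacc
Sfn, chr4:133602119-133602418: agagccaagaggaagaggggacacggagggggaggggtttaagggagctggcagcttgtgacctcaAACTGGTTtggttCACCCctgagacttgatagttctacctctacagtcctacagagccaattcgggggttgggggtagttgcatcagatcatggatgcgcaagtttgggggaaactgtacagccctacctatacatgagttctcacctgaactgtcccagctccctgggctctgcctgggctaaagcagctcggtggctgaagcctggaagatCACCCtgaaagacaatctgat
The Krt5 window held 4 CACCC matches, at positions -242, -145, -118 and 7 from the start site. The Sfn window held CACCC at -171 and 29 and AACNGGTT at -184. Among 32851 RefSeq promoter windows of the same length, 57.5% held CACCC and 2.09% held AACNGGTT. Neither window matched the other motifs searched on both strands. These were a TATA box (TATAAA), which 13.6% of all windows held, an AP-1 core (TGANTCA) with 7.81%, an octamer (ATGCAAAT) with 1.74%, a Sox core (ACAAAG) with 18.7% and a TEAD core (GGAATG) with 14.7%. Of the 4 genes, 3 had a window in the RefSeq table. The entry of Krt14 lay 1518 bases from its nearest annotated coding transcript start and is not shown.

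FPKM is the number of fragments scaled by transcript length and library depth, and the authors' bounds around it imply 8.79 to 13.0 M fragments per library. Between 33.4% and 76.1% of a library's summed FPKM came from its 10 highest genes. Among genes with 1 FPKM or more in either library of a group, none had the same value in both. Over these genes the 2 libraries of a group correlated at r = 0.816 to 0.846 on the log2(FPKM + 1) scale. Krt4 and Sfn had a value in all 14 libraries, Krt5 in 12 and Krt14 in 9. A library without a value for a gene was left out for that gene and never counted as 0. All 4 genes passed a filter that asked for 1 FPKM in 2 or more of the 12 replicated libraries, which Krt4 did only through its control libraries of day 10 and Krt5 only through day 10. Differences below are on the log2(FPKM + 1) scale from a limma fit of the 12 libraries, with p-values adjusted over all genes of a comparison, and calls were made at an adjusted p under 0.05. The added 1 makes these differences smaller than the fold for low genes.

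**Figure D1:**
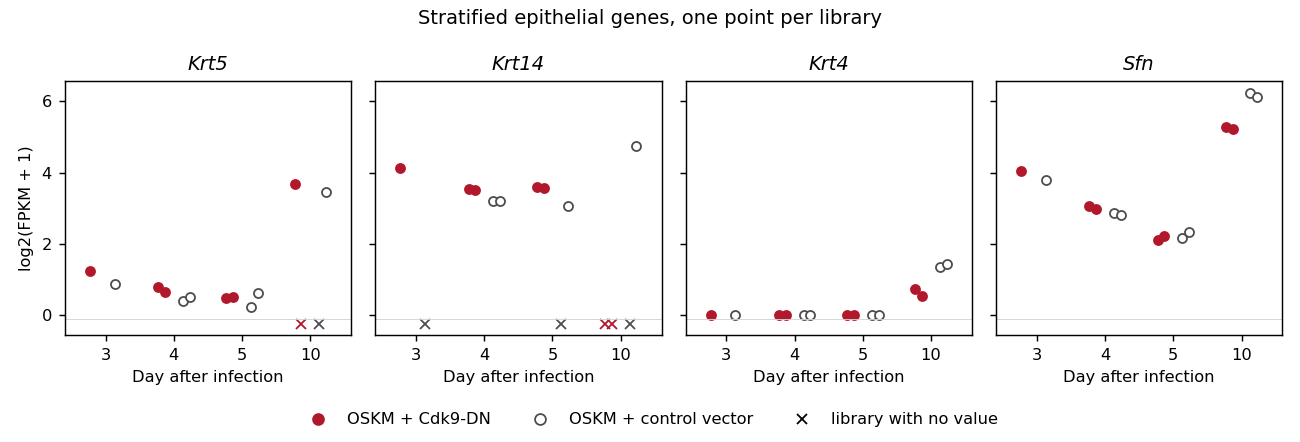
FPKM of Krt5, Krt14, Krt4 and Sfn in each library as log2(FPKM + 1), by day, with Cdk9-DN cells as filled points left of control cells as open points; crosses under the grey line are libraries with no value. Krt4 sits at 0 until day 10, Sfn is lowest at day 5 in both arms, and at day 10 both Sfn and Krt4 lie lower in the Cdk9-DN libraries than in the control libraries.

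Krt5, the type II keratin of basal cells, was low until day 5 and rose in both arms by day 10, with no difference called between the vectors on any day. At day 3 it had 1.37 FPKM in the Cdk9-DN library and 0.830 FPKM in the control library. At day 4 it had 0.739 and 0.549 FPKM in Cdk9-DN cells, against 0.311 and 0.410 FPKM in control cells. At day 5 it had 0.378 and 0.408 FPKM in Cdk9-DN cells, against 0.159 and 0.527 FPKM in control cells. The difference was not called on either day (0.27 at day 4, adjusted p = 0.831, and 0.07 at day 5, adjusted p = 0.954). At day 10 Krt5 reached 11.9 FPKM in the 1 Cdk9-DN library with a value (replicate 1), against 10.03 FPKM in the 1 control library with a value (replicate 2). The day 10 difference was 0.22 with a 95% interval of -0.34 to 0.78, which leaves room for a lower as well as a higher level with Cdk9-DN. With 1 library per vector, this interval and the SEs of the rises below hold no spread of Krt5 at day 10. They draw on its spread at days 4 and 5, where it was low. Against day 4, Krt5 rose by 2.97 in Cdk9-DN cells (SE 0.190, adjusted p = 2.53e-04) and by 3.02 in control cells (SE 0.190, adjusted p = 1.38e-04). These sizes rank it 129 of 5816 genes in Cdk9-DN cells and 167 of 5814 in control cells, counted from the largest increase.

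Krt14, the type I partner of Krt5, was already well above Krt5 at days 3 to 5, so the 2 chains of the basal pair did not start from like levels. It had 16.6 FPKM in the Cdk9-DN library of day 3, where the control library had no value. At day 4 it had 10.6 and 10.5 FPKM in Cdk9-DN cells, against 8.18 and 8.14 FPKM in control cells. At day 5 it had 11.1 and 10.8 FPKM in Cdk9-DN cells, against 7.34 FPKM in the 1 control library with a value (replicate 2). That library had the lowest implied depth of the series, 8.79 M fragments. Its 10 highest genes held 76.1% of its summed FPKM, the largest share of the series. The day 5 control level of Krt14 rests on it alone. For Krt14 the Cdk9-DN level was higher by 0.33 at day 4 (95% interval 0.19 to 0.48) and by 0.52 at day 5 (0.35 to 0.70). Neither difference passed the adjustment over all genes (adjusted p = 0.390 and 0.209). Taken over both days, a comparison added after these values were seen, the difference was 0.43 (adjusted p = 0.0981), and without the filter on low values the adjusted p was 0.0428. At day 10 it had 25.9 FPKM in 1 control library and no value in the other 3 libraries, so the vectors could not be compared. In control cells it rose by 1.56 between days 4 and 10. The SE of 0.0639 holds no spread of Krt14 at day 10, where 1 control library had a value.

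Krt4, the keratin of mucosal suprabasal cells, was listed at 0 in all 10 libraries of days 3, 4 and 5. At day 10 it had 0.649 and 0.459 FPKM in Cdk9-DN cells, against 1.56 and 1.72 FPKM in control cells, so that Cdk9-DN cells had 33.7% of the control mean. The authors' upper bounds in the Cdk9-DN libraries (0.956 and 0.713 FPKM) lay below their lower bounds in the control libraries (1.06 and 1.20 FPKM). These levels rest on an implied 18.0 and 13.0 fragments in Cdk9-DN cells and 38.9 and 44.3 fragments in control cells. The day 10 difference of -0.77 was called (SE 0.0794, adjusted p = 6.94e-04). Its SE draws on 4 groups listed at 0, which show no spread, and when only the day 10 groups were fitted the adjusted p was 0.0508. Day 10 against day 4, where it was listed at 0, was called in Cdk9-DN cells (adjusted p = 8.29e-04) and in control cells (adjusted p = 1.20e-05).

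Sfn, the 14-3-3 adaptor, was lowest at day 5 in both arms and stood highest at day 10. At day 3 it had 15.6 FPKM in the Cdk9-DN library and 12.9 FPKM in the control library. At day 4 it had 7.42 and 6.90 FPKM in Cdk9-DN cells, against 6.21 and 6.05 FPKM in control cells. At day 5 it had 3.32 and 3.62 FPKM in Cdk9-DN cells, against 3.44 and 4.02 FPKM in control cells. Neither difference between the vectors was called (0.19 at day 4, adjusted p = 0.755, and -0.08 at day 5, adjusted p = 0.797). At day 10 it had 37.6 and 36.2 FPKM in Cdk9-DN cells, against 74.9 and 68.1 FPKM in control cells. Cdk9-DN cells thus had 51.5% of the control mean at day 10, a difference of -0.94 (SE 0.0801, 95% interval -1.12 to -0.75, adjusted p = 3.27e-04). It ranked 433 from the lowest of 5740 genes.

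Between days 4 and 5 Sfn fell by 0.87 in Cdk9-DN cells (adjusted p = 0.00398) and by 0.60 in control cells (adjusted p = 0.0118). Of all genes tested, 1.95% were called lower between these days in Cdk9-DN cells and 3.19% in control cells. The control call ended without control day 4 replicate 1 (adjusted p = 0.0721) or replicate 2 (adjusted p = 0.0575), and fits of the compared groups alone ended both calls (adjusted p = 0.124 in Cdk9-DN cells and 0.193 in control cells). Between days 5 and 10 it rose by 3.08 in Cdk9-DN cells (adjusted p = 6.31e-07) and by 3.94 in control cells (adjusted p = 1.88e-07), in a comparison where 22.5% of genes were called higher in Cdk9-DN cells and 27.3% in control cells. The control change ranked 60 of 5798 genes from the largest increase. The rise from day 4 was 2.21 in Cdk9-DN cells (adjusted p = 2.33e-06) and 3.34 in control cells (adjusted p = 2.27e-07). A part of the Sfn transcript is shared with another locus: 184 of its 1564 distinct 50-base words also occur in Gm7850, so fragments could have been split between them. Gm7850, looked at for this reason, had 16.4 and 14.1 FPKM in Cdk9-DN cells and 29.9 and 26.4 FPKM in control cells at day 10.

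**Figure D2:**
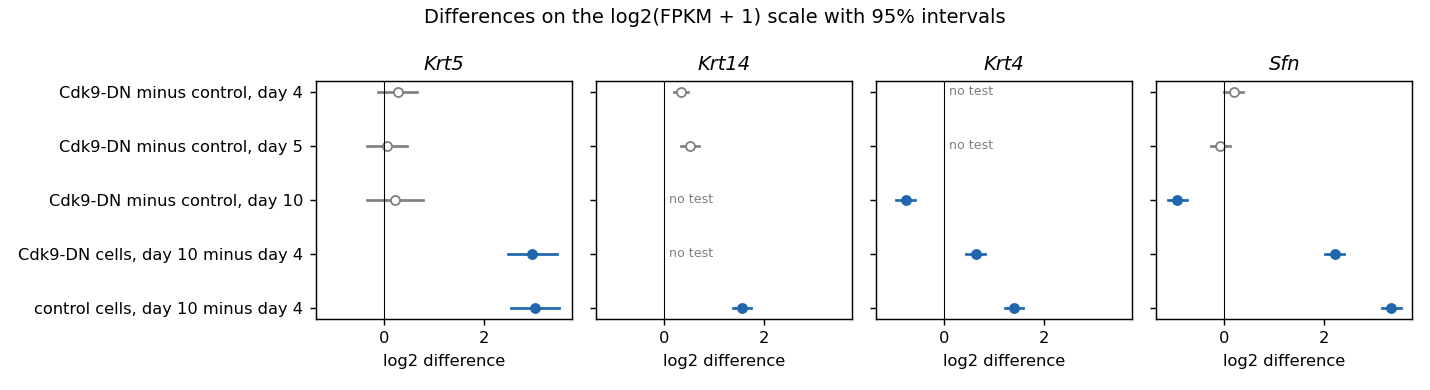
Differences of Krt5, Krt14, Krt4 and Sfn on the log2(FPKM + 1) scale with 95% intervals; the first 3 rows set Cdk9-DN against control at days 4, 5 and 10, and the last 2 set day 10 against day 4 within each vector. Filled points have an adjusted p under 0.05. At day 10 Sfn (-0.94) and Krt4 (-0.77) lie below 0 and Krt5 (0.22) has an interval that spans 0. Intervals of Krt5 and Krt14 that involve day 10 hold no spread of that day, with at most 1 value per vector.

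Between the vectors at day 10, Sfn was called lower, in a comparison where 14.4% of the 5740 genes tested were called lower. Krt4 was called lower too, but it entered the test only through the control libraries in which it is high, so its call adds nothing to a count. No member was called at day 4 or day 5, when 0.0336% and 0.169% of all genes were called in either direction. At day 10 against day 4, Sfn was called higher in Cdk9-DN cells, where 24.5% of 5816 genes were, and Sfn and Krt14 were called higher in control cells, where 28.2% of 5814 genes were. Krt5 and Krt4 were also called higher in both arms, but they passed the filter only through day 10 and are not counted. The comparisons at day 10 share libraries, so a gene's lower level with Cdk9-DN and its larger rise in control cells are one difference seen from 2 sides. The effect of Cdk9-DN was then set against its effect on the earlier days. For Sfn the day 10 effect was lower than the day 4 effect by 1.13 (SE 0.113, adjusted p = 0.00118) and lower than the day 5 effect by 0.86 (SE 0.113, adjusted p = 0.00333). For Krt4, at 0 on both earlier days, this comparison only restates its day 10 value. For Krt5, with 1 library per vector at day 10, they were -0.05 (95% interval -0.73 to 0.63) and 0.16 (-0.53 to 0.84), neither called. Of all genes, 7.79% were called lower in the difference between days 10 and 4 and 7.42% in that between days 10 and 5. In a bulk population, fewer cells that express a gene and less of its RNA per cell cannot be told apart.

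By level per transcript length at day 10, Sfn stood highest and Krt4 lowest of the genes with a value, 3 in Cdk9-DN cells and 4 in control cells. In Cdk9-DN cells Sfn had 36.9 ± 0.982 FPKM, Krt5 had 11.9 FPKM in its 1 library and Krt4 had 0.554 ± 0.135 FPKM (SD, n = 2 each for Sfn and Krt4). In control cells Sfn had 71.5 ± 4.82 FPKM, Krt14 had 25.9 and Krt5 10.03 FPKM in 1 library each, and Krt4 had 1.64 ± 0.111 FPKM (SD, n = 2 each for Sfn and Krt4). With 1 library each, Krt14 and Krt5 could not overlap in control cells, and the other neighbours did not overlap. At day 4 the order was different, with Krt14 above Sfn (10.6 ± 0.132 and 7.16 ± 0.372 FPKM in Cdk9-DN cells, 8.16 ± 0.0217 and 6.13 ± 0.115 FPKM in control cells, SD, n = 2 each) and Krt5 below 1 FPKM.

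Krt6a and Krt6b, type II keratins of hair follicle and wounded epidermis, had values at days 3 to 5 only and, like Krt14, stood higher with Cdk9-DN there. They were chosen after their values were seen. Krt6a had 9.75 FPKM in Cdk9-DN cells and 4.77 FPKM in control cells at day 3. At day 4 it had 6.13 and 6.16 FPKM in Cdk9-DN cells, against 2.04 and 2.99 FPKM in control cells. At day 5 it had 2.53 and 2.08 FPKM in Cdk9-DN cells, against 1.10 and 1.30 FPKM in control cells. The difference of Krt6a over days 4 and 5 was 0.81 (SE 0.111, adjusted p = 0.111). Krt6b was lower in level but lay on the same side, with a difference of 0.54 over days 4 and 5 (SE 0.110, adjusted p = 0.249). Krt17, a keratin of hair follicle and activated epidermis and the remaining one tested, differed by -0.08 over these days (adjusted p = 0.932). No epidermal keratin of the 5 tested was called at day 4 or day 5. The median differences of these 5 were 0.33 and 0.39, beside -0.01 and -0.02 over all genes. Krt6a and Krt6b share 972 of their 50-base words (of 2229 in Krt6a and 2186 in Krt6b), and 188 of the 1649 words of Krt14 occur in Krt16, so these keratins are uncertain where fragments were split between copies. Krt16 and Krt17 had no value in any library of day 10, so no comparison was possible there. Krt4 shares no such word with another gene, and Krt5 shares 183 of 2148.

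**Figure D3:**
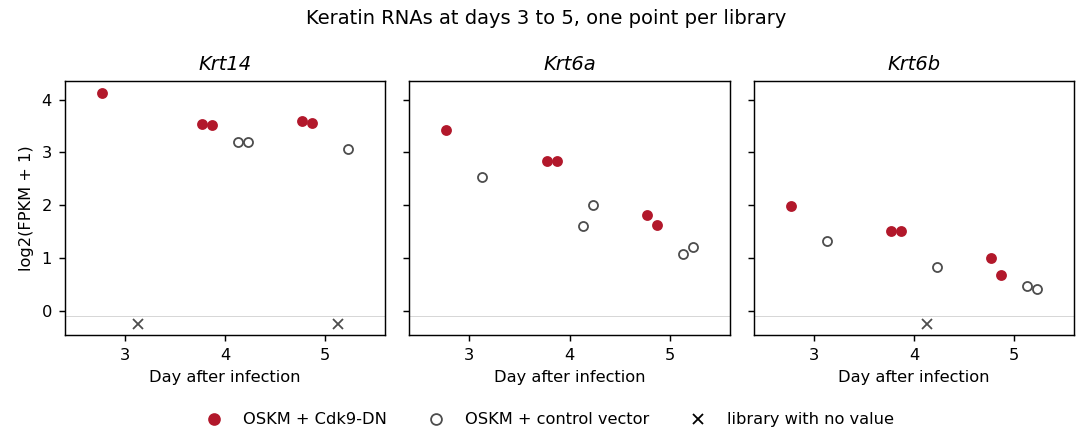
Krt14, Krt6a and Krt6b at days 3 to 5 as log2(FPKM + 1), 1 point per library, Cdk9-DN filled and left of control; crosses are libraries with no value. In each panel the Cdk9-DN points of a day lie above the control points of that day that have a value. No such difference passed the adjustment over all genes, and the share of all genes that separate in this way was not counted.

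Of the 19 epidermal keratins listed for comparison, 16 had a value in some library and 6 passed the filter, with Krt5, Krt14, Krt4, Krt6a, Krt6b and Krt17 among them. The other 10 lay between 0 and 5.09 FPKM in every library with a value. Of the suprabasal keratins of epidermis, Krt1 had 0.590 FPKM in 1 Cdk9-DN library and 0.863 to 0.988 FPKM in control libraries at day 10. Krt2 was listed at 0 in both Cdk9-DN libraries of that day, which alone shows no difference between the vectors. Below the filter, 5 listed keratins had a value in all 14 libraries. They summed to 0.285 to 0.353 FPKM in Cdk9-DN cells and 0.159 to 0.312 FPKM in control cells at day 10, near the floor in both.

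Krt8 and Krt18, the keratin pair of simple epithelia, were lower with Cdk9-DN at day 10 as well. Krt8 had 97.9 to 98.2 FPKM in Cdk9-DN cells and 189 FPKM in 1 control library, and Krt18 had 6.31 to 7.10 FPKM in Cdk9-DN cells and 83.8 to 86.6 FPKM in control cells. Krt20, the third keratin of this list that was tested, was lower too (-0.52, adjusted p = 0.0144), so that 3 of 3 were called lower with Cdk9-DN. Krt18 differed by -3.49 (adjusted p = 8.33e-06) and Krt8 by -0.94 (adjusted p = 0.00223). Of all genes, 14.4% were called lower in this comparison. The median of the 3 was -0.94, beside 0 over all genes. Krt18, below 1 FPKM at days 4 and 5, passed the filter only through day 10. Krt18, Krt20 and Krt23, which had a value in all 14 libraries where Krt8 did not, summed to 12.4 to 12.8 FPKM in Cdk9-DN cells and 93.3 to 95.1 FPKM in control cells at day 10, a sum that Krt18 dominates in control cells. The part of such simple epithelial RNA in the difference of Sfn and Krt4 was not tested.

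Among genes of the desmosome, the junction that anchors keratin filaments, 2 were called lower as well. Perp, a desmosomal protein and p53 target, had 172 to 176 FPKM in Cdk9-DN cells and 253 to 254 FPKM in control cells at day 10 (-0.54, adjusted p = 2.30e-04). Dsg2, the desmoglein of simple and basal cells, had 2.70 FPKM in 1 Cdk9-DN library and 5.63 FPKM in 1 control library (-0.84, adjusted p = 0.00970). Pkp2, a plakophilin, was not called (-0.66, adjusted p = 0.0865). These were the 3 tested members of the desmosome and hemidesmosome list, and their median was -0.66, beside 14.4% of all genes called lower and a median of 0. Dsg1a and Dsg3, the desmogleins of stratified epithelium, stayed below 1 FPKM in every library with a value. Dsg3 had 0.666 to 0.995 FPKM in Cdk9-DN cells and 0.572 to 0.707 FPKM in control cells at day 10.

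Most tested genes of the cornified envelope and the suprabasal layers rose in both arms, and a minority differed between the vectors. In Cdk9-DN cells 9 of 11 tested members were called higher at day 10 than at day 4 (median 1.30, beside 0.11 over all genes), and in control cells 8 of 10 were (median 1.501, beside 0.07), where 24.5% and 28.2% of all genes were. List genes low at days 4 and 5 could enter such counts only through day 10. With other scalings the median of all genes in Cdk9-DN cells was -0.03 (median-of-ratios) or -0.04 (quantile). Between the vectors at day 10, 3 of 9 were called lower with Cdk9-DN and none higher, with a median of -0.37, beside 14.4% of all genes called lower. Ppl, the desmosomal plakin periplakin, had 5.07 to 5.32 FPKM in Cdk9-DN cells and 21.5 FPKM in 1 control library (-1.86, adjusted p = 3.68e-04). Tgm3, an envelope transglutaminase, had 18.0 to 18.3 FPKM in Cdk9-DN cells and 30.4 FPKM in 1 control library (-0.71, adjusted p = 0.0370). Cstb, the protease inhibitor cystatin B, differed by -0.50 (adjusted p = 0.0162), and Cnfn, which encodes cornifelin, was not called (-0.66, adjusted p = 0.125). Ly6d, a surface protein of stratified epithelium, had 43.0 to 46.3 FPKM in Cdk9-DN cells and 40.8 to 41.7 FPKM in control cells and was not called (0.11, adjusted p = 0.713). Loricrin, encoded by Lor, was also not called (-0.09, adjusted p = 0.6005).

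**Figure D4:**
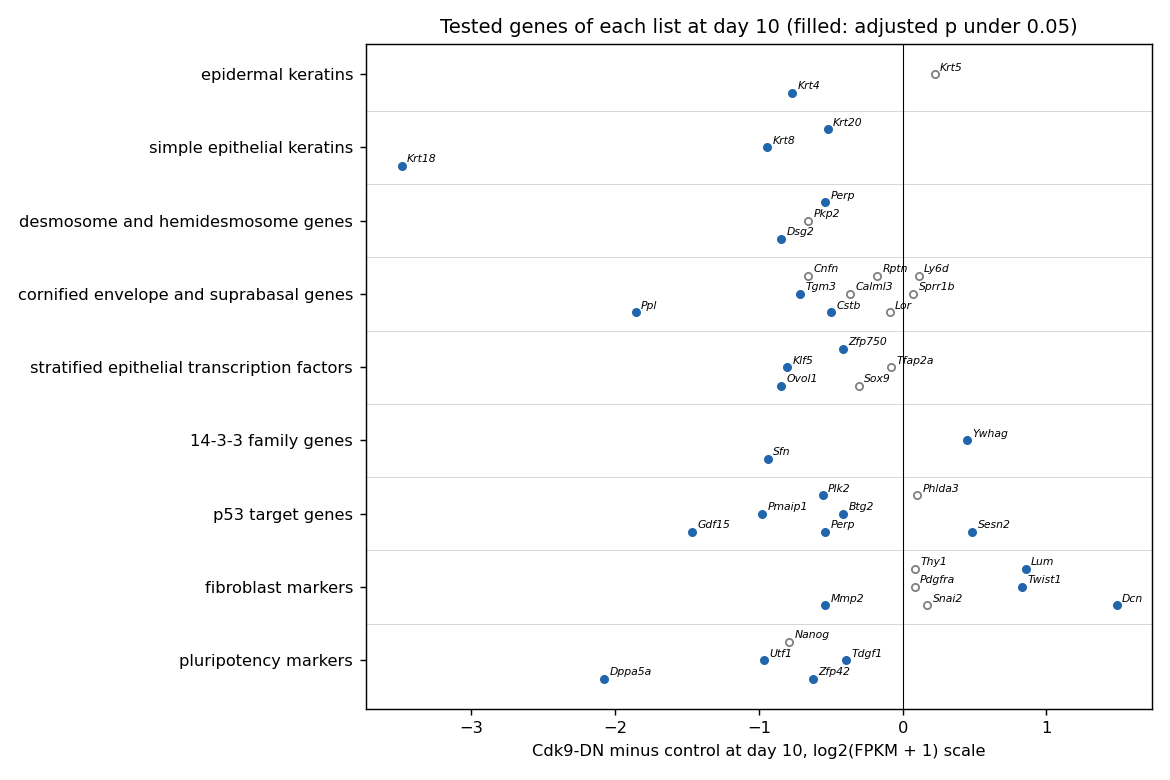
Difference between Cdk9-DN and control cells at day 10 on the log2(FPKM + 1) scale for each tested gene, by list; filled points have an adjusted p under 0.05, and height within a row carries no value. All 3 simple epithelial keratins, with Krt18 at -3.49, and Sfn at -0.94 lie left of 0, while Krt5 (0.22), Ly6d (0.11) and the fibroblast marker Dcn (1.49) lie right of it.

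Among transcription factors of stratified epithelia, 3 of the 5 tested were called lower with Cdk9-DN at day 10 and none higher, beside 14.4% of all genes called lower (median -0.41, beside 0). Ovol1, a transcriptional repressor of differentiating epithelial cells, had 1.01 FPKM in 1 Cdk9-DN library and 2.60 FPKM in 1 control library (-0.84, adjusted p = 0.0103). Klf5, a basal keratinocyte factor that embryonic stem cells express too, differed by -0.80 (adjusted p = 0.0414), and Zfp750, an epidermal differentiation factor, by -0.41 (adjusted p = 0.0146). Tfap2a, an early ectodermal factor, had 10.5 FPKM in 1 Cdk9-DN library and 11.2 FPKM in 1 control library and was not called (-0.08, adjusted p = 0.809). At day 10 against day 4, 3 of the 5 were called higher in Cdk9-DN cells and 4 of the 5 in control cells, beside 24.5% and 28.2% of all genes.

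Ywhag, the gamma member of the 14-3-3 family and a relative of Sfn, was higher with Cdk9-DN at day 10. Ywhag had 145 FPKM in both Cdk9-DN libraries and 104 to 108 FPKM in control cells at day 10, a difference of 0.45 (adjusted p = 3.06e-04). Of the 7 family members, 3 had a value in some library and these 2 could be tested. Of 7 tested p53 target genes, Sfn not counted, 5 were called lower and 1 higher with Cdk9-DN at day 10, beside 14.4% and 14.5% of all genes (median -0.54, beside 0). Gdf15, a secreted stress cytokine, differed by -1.46 (adjusted p = 9.21e-04) and Pmaip1, which encodes the BH3-only protein Noxa, by -0.98 (adjusted p = 0.0320). Plk2, a p53-induced kinase, differed by -0.56 (adjusted p = 2.31e-04), and Sesn2, a sestrin of the stress response, by 0.48 (adjusted p = 0.00272). At day 10 against day 4, 1 was called higher and 3 lower of 6 tested in Cdk9-DN cells, and 3 higher and 2 lower of 7 in control cells. Of all genes, 13.5% were called lower in Cdk9-DN cells and 21.8% in control cells over these days.

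Markers of other cells in the population differed between the vectors at the same time. Of 7 tested fibroblast markers, 3 stood higher and 1 lower in Cdk9-DN cells at day 10 by the test (median 0.17), beside 14.5% of all genes called higher and 14.4% called lower. Snai2 (0.17, adjusted p = 0.215), Thy1 (0.08, adjusted p = 0.364) and Pdgfra (0.08, adjusted p = 0.578) were not called. The 2 markers with a value in all 14 libraries were Dcn and Lum, both among those called higher. They summed to 13.3 to 15.0 FPKM in Cdk9-DN cells and 3.85 to 4.42 FPKM in control cells, a sum that Dcn dominates. Dcn, a matrix proteoglycan of fibroblasts, had 12.5 to 13.997 FPKM in Cdk9-DN cells and 3.73 to 4.42 FPKM in control cells (1.49, adjusted p = 2.16e-04). Lum, another such proteoglycan, differed by 0.85 (adjusted p = 0.0130), the mesenchymal factor Twist1 by 0.83 (adjusted p = 0.0180) and the matrix protease Mmp2 by -0.54 (adjusted p = 0.00960). Of 5 tested pluripotency markers, 4 were called lower and none higher, with a median of -0.79, beside 14.4% of all genes called lower. Dppa5a differed by -2.08 (adjusted p = 4.87e-05), Utf1 by -0.97 (adjusted p = 0.00500), Zfp42 by -0.62 (adjusted p = 0.00318) and Nanog, not called, by -0.79 (adjusted p = 0.0503). The 5 listed pluripotency markers with a value in all libraries are not the same set as the 5 tested. They summed to 19.7 to 20.4 FPKM in Cdk9-DN cells and 45.8 to 53.6 FPKM in control cells at day 10, and 1 of them stayed below 1 FPKM in every library. No trophoblast marker passed the filter. The 7 with a value in all libraries summed to 0.764 to 1.42 FPKM in Cdk9-DN cells and 1.497 to 2.21 FPKM in control cells at day 10, with Cdx2 listed at 0 in both control libraries. Of these 7, 6 stayed below 1 FPKM in every library. The part of these cell types in the results for Sfn and Krt4 was not tested.

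Candidates for a like pattern were genes past the filter with a value in every library that listed the member. They needed a mean of at least 5 FPKM in some group. Symbols of unnamed gene models, such as Gm7850, and of small RNAs were passed over, so such genes cannot appear here. Krt4, Krt5 and Sfn had 696 to 764 candidates each. Taken for each member were the 3 candidates with the highest Pearson correlation of log2(FPKM + 1) over the libraries with a value for it. For Krt4 over 14 libraries these were Cldn9 (r = 0.994), a claudin of tight junctions, Dppa5b (r = 0.993) and Sprr2d (r = 0.992), a small proline-rich envelope protein. For Krt5 over 12 libraries they were Sprr2b (r = 0.983), another small proline-rich gene, Gpx2 (r = 0.975), an epithelial glutathione peroxidase, and Serpinb3a (r = 0.975), a serpin of squamous epithelium. For Sfn over 14 libraries they were Aldoart1 (r = 0.977), Tcn2 (r = 0.973), which encodes transcobalamin, and Pigyl (r = 0.960). Krt14 had too few libraries for this measure. The correlations share libraries and rest largely on day 10: without it, r was 0.759 for Sprr2b and 0.188 for Gpx2 with Krt5, and 0.809 to 0.873 for the 3 genes with Sfn.

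The neighbours of Krt4 and of Krt5 parted at day 10 as these 2 keratins did, which the choice by likeness leads to. Sprr2d had 4.57 to 4.79 FPKM in Cdk9-DN cells and 20.2 to 20.6 FPKM in control cells at day 10, and Cldn9 had 2.38 to 2.49 FPKM in Cdk9-DN cells and 16.9 to 17.3 FPKM in control cells. Sprr2b had 147.9 FPKM in 1 Cdk9-DN library and 131 to 148 FPKM in control cells. Serpinb3a had 8.45 to 9.66 FPKM in Cdk9-DN cells and 8.63 to 9.29 FPKM in control cells, and Gpx2 had 7.61 to 8.02 FPKM in Cdk9-DN cells and 7.95 to 8.78 FPKM in control cells. The groups of Sprr2d and Cldn9 stood well apart, while those of Sprr2b, Serpinb3a and Gpx2 overlapped. Among the Sprr2 genes, which form a cluster of near-identical copies, the split of fragments is uncertain.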

How the data were processed

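RNA from 14 libraries was used. The authors deposited 1 table per library, which gives FPKM between a low and a high bound. Per the submitters' processing notes, the tools were CASAVA 1.8.2, TopHat2 2.0.10 and Cufflinks 2.2.1, and the builds NCBIM37 and mm9. No counts of reads entered the work. Depth was derived from the bounds, taken as counting error alone. Entries under 1 identifier were summed (16 genes) and the 1 failed entry left out.

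The 12 libraries of days 4, 5 and 10 were fitted as 6 groups in limma 3.58.1 (R 4.3.3) with a variance trend over intensity, on log2(FPKM + 1), each gene on the libraries with a value, with at least 2 residual degrees of freedom. Adjusted p-values (Benjamini-Hochberg, two-sided, threshold 0.05) cover all genes of a contrast. Of 7460 genes past the filter, 3491 had a value in all 12 libraries. A member or list gene at 0 in all libraries of a contrast had no test. Day 3 has 1 library per vector and no test. The procedure was tested on simulated data.

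The members and lists were chosen with earlier results of these data known. Named were the members and the 3 candidate genes most correlated with each. Up to 4 members of a list were named by the size of the day 10 effect, besides genes said to be chosen otherwise. A few further list members were named after their values were seen. Starts were raised by 1 because the deposited starts count from 0. RefSeq (GRCm38.p6) gave promoters and GENCODE M21 the exons and shared 50-base words. Alternatives were other pseudocounts, filters, scalings, separate fits, a replicate block and leaving out each library.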

Additional observations from a re-analysis of the deposited data

Results flagged for a closer look

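Sfn had a Cdk9-DN effect at day 10 that differed from its effect at day 4 by -1.13 (SE 0.113, adjusted p = 0.00118 in limma) and from its effect at day 5 by -0.86 (SE 0.113, adjusted p = 0.00333), which marks it as a gene whose response to Cdk9-DN was not the same on all days. Both Cdk9-DN libraries of day 10 lay below both control libraries. At day 4 both lay above them, but that difference was not called (0.19, adjusted p = 0.755). How many of all genes separate in this way was not counted.

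Krt4 had the same kind of difference between days, -0.77 against day 4 (SE 0.112, adjusted p = 0.00542) and -0.77 against day 5 (SE 0.112, adjusted p = 0.00486). Since Krt4 was listed at 0 in all libraries of days 4 and 5, this difference is its day 10 value alone. Groups of 2 libraries are too small to ask whether 1 library stands apart from the rest.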

How the results depend on the processing

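The 22 called results of the 4 genes kept their direction in all 298 refits and stayed called in 291 of them. They include results of Krt4 and Krt5, which passed the filter only through day 10. That filter favours a rise by day 10, and for Krt4 a higher control level, so the tally adds no support for these 2 genes. For Krt4, at 0 on days 4 and 5, changes against either day are the same (1.40 in control cells and 0.63 in Cdk9-DN cells). The 7 that ended were the Krt4 differences between days with a pseudocount of 0.1 (-1.43 against day 4, adjusted p = 0.0792, and -1.43 against day 5, adjusted p = 0.0783), 3 separate fits (Krt4 at day 10, -0.77, adjusted p = 0.0508; Sfn between days 4 and 5, -0.87 in Cdk9-DN cells, adjusted p = 0.124, and -0.60 in control cells, adjusted p = 0.193), and the Sfn change in control cells between days 4 and 5 without either control day 4 library, which ranged from -0.68 to -0.51 when 1 library was left out. The Sfn effect at day 10 ranged from -1.004 to -0.82 with an adjusted p of 3.05e-04 to 0.0333. The mean effect on Krt14 over days 4 and 5 (added after seeing the data) was called without the filter on low values (0.43, adjusted p = 0.0428). The causes were not tested. Between the vectors at day 10 the all-gene median was 0, against -0.0025 with median-of-ratios scaling and 0.0017 with quantile normalization.

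Of the differences that were not called, 11 refits changed sign. For Krt5 these were the difference of its effects between days 10 and 4 under quantile normalization (0.0077), and between days 10 and 5 with a pseudocount of 0.1 (-0.051). Without 1 library they ranged from -0.13 to 0.033 and from -0.044 to 0.35, its effect at day 5 from -0.13 to 0.27, and its control change between days 4 and 5 from -0.23 to 0.17. The Sfn effect at day 5 ranged from -0.17 to 0.0090. Krt14 in Cdk9-DN cells between days 4 and 5 was -0.014 under quantile normalization.

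Counts of called genes were 2, 10 and 1658 for the Cdk9-DN effect at days 4, 5 and 10 and 13 for its mean over days 4 and 5, 869 and 887 for its differences between days 10 and 4 and days 10 and 5, 2208, 194 and 2019 in Cdk9-DN cells for days 10 against 4, 5 against 4 and 10 against 5, and 2907, 299 and 2885 in control cells for the same. With a pseudocount of 0.1 the day 4 count was 6. Without the filter, counts were 18 and 24 at days 4 and 5, 42 for their mean, and 71 (Cdk9-DN) and 147 (control) between days 4 and 5. Separate fits gave 7 and 357 at days 4 and 10, 22 for the mean, 577 for days 10 and 4, 1227, 41 and 1287 in Cdk9-DN cells and 1559, 26 and 1643 in control cells. Genes with a value in all 12 libraries gave 1, 3 and 768 at days 4, 5 and 10, 5 for the mean, 396 and 385 for the differences between days, 1141, 46 and 1058 in Cdk9-DN cells and 1498, 86 and 1485 in control cells. Without 1 library, counts ranged from 6 to 10 at day 4, 9 to 19 at day 5, 976 to 1250 at day 10, 9 to 20 for the mean, 547 to 756 and 525 to 750 for the differences between days, and from 38 to 64 (Cdk9-DN) and 43 to 125 (control) between days 4 and 5.

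The labels give replicate numbers and do not say whether same-numbered libraries were made together. The deviations of same-numbered libraries correlated between -0.16 and 0.10 over 3491 genes, which cannot show how they were made. With the replicate block, no call on the 4 genes changed, the Krt5 difference between days 10 and 4 was 0.041 where it had been -0.05, and counts were 6 at day 5 and 88 (Cdk9-DN) and 155 (control) between days 4 and 5. Depth limits the low levels: Krt4 rests on 13.0 to 44.3 implied fragments at day 10, and Krt5 on 5.38 to 12.3 at day 4 and 2.31 to 7.60 at day 5.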
